A study of Mus musculus with 10 samples.

Results

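The genes described are 10 neutrophil granule genes of the mouse, grouped by the stage of maturation at which their products are made. They comprise 4 primary granule genes (Mpo, Elane, Prtn3 and Ctsg), 4 secondary granule genes (Ltf, Camp, Ngp and Lcn2) and 2 gelatinase-stage genes (Mmp8 and Mmp9). They were taken by gene symbol from a table of 20813 genes. All 10 were present and all 10 passed the filter of a mean of at least 10 normalized counts that 15276 genes passed. The choice of genes was made with the difference between the groups already known, so that difference is described for them and is not tested.

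The samples were 10 spleens of C57BL/6 mice filled with transplanted T-cell acute lymphoblastic leukemia, a cancer of immature T cells. Sirt1 conditional knockout leukemias had been injected into a vein of recipients irradiated below the lethal dose, and both groups carry this background. The 5 samples labelled Sirt1 deleted bear the title prefix TMX and the 5 labelled Control the prefix VEH. According to the protocol the mice received either tamoxifen, at 3 mg each in corn oil, or corn oil alone, so the genotype label and the treatment cannot be told apart. The labels give neither the Cre driver, nor the number of leukemia clones, nor the age of the mice, and an irradiated host keeps some blood cells of its own. Spleens were pressed to single cells, red cells were lysed, and strand-specific libraries were sequenced. Nothing in the labels says that the samples of a group shared or did not share a leukemia, so p-values measure the spread between these samples, and no batch is named.

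Neutrophils arise in the marrow from granulocyte progenitors through promyelocytes, myelocytes, metamyelocytes and band cells, and they fill their granules in that order. Primary (azurophil) granules are loaded in promyelocytes, secondary (specific) granules in myelocytes and metamyelocytes, and gelatinase granules in band cells. Each set of transcripts is largely shut off as the next stage begins, although the proteins stay stored, so the transcripts report the stages present and not the granules. Spleens of mice can make granulocytes themselves, and the transcription factors C/EBP alpha, C/EBP epsilon and PU.1 (Spi1) are known to drive this programme.

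The deposited values are counts per gene that the authors normalized with DESeq, called normalized counts here, and their totals lay between 33660200 and 34472000 per sample. Sirt1 itself had 1873 ± 146 normalized counts in TMX and 1810 ± 62.5 in VEH samples (SD, n = 5 each), which did not differ beyond the spread (limma adjusted p = 0.568). That value sums the whole gene, and the labels do not say which part of it the allele removes, so it does not check the deletion. Along the first principal component of all tested genes, TMX 10 and TMX 11 lay nearest to the VEH samples, at 9.41 and 12.9 against 39.2 to 52.1 for the other TMX samples. The 12 T lineage markers, checked against the tissue label, summed to 161856 to 199095 normalized counts in TMX and 145038 to 158135 in VEH samples. Thy1, the most abundant of them, had 79592 ± 17084 against 53217 ± 3677 normalized counts (SD, n = 5 each) and weighs heavily in these sums. Cd5, Cd28 and Cd8b1 were called lower in TMX by limma. The median log2 difference of the 12 markers was -0.10, so the higher sums are not read as more T lineage RNA.

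The positions of the genes are given in the mm10 (GRCm38) build, from GENCODE M21. Prtn3 (chr10:79874476-79883174) and Elane (chr10:79886247-79888215) are neighbours on the plus strand, with a gap of 3072 bases. Camp (chr9:109847379-109849617, minus strand), Ngp (chr9:110419747-110423012) and Ltf (chr9:111019271-111042767) lie within 1195.4 kb of chromosome 9, while Mmp8 is elsewhere on it (chr9:7558456-7568485). Mpo (chr11:87793581-87804413), Ctsg (chr14:56099881-56102574, minus strand), Lcn2 (chr2:32384633-32388252, minus strand) and Mmp9 (chr2:164940780-164955850) stand alone.

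Promoter letters are shown as a description, and whether they bear on how the genes varied across samples was not tested. RefSeq promoter windows of GRCm38.p6 were matched for 9 of the 10 genes, all but Mmp9. From each window the 250 bases before the annotated RefSeq start were searched on both strands. That start can lie inside the GENCODE gene positions given above, as the whole Prtn3 window does. Of the 250 bases, only 47 in Mpo, 53 in Lcn2 and 89 in Camp overlap no annotated exon. For 2 primary and 2 secondary genes, the 120 bases nearest the start that overlap no annotated exon are printed 5′ to 3′ on the gene's strand. Capitals mark GAGGAAG, the core of a PU.1 site, or its complement, and GCAAT, the core that C/EBP factors bind, or its complement ATTGC.
Prtn3, chr10:79879494-79879613, plus strand: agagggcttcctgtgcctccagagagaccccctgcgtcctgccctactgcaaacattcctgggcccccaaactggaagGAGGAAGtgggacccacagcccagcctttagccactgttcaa
Elane, chr10:79886127-79886246, plus strand: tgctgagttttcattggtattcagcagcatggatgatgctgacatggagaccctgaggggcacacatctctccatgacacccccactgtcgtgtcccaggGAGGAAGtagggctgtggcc
Ngp, chr9:110419627-110419746, plus strand: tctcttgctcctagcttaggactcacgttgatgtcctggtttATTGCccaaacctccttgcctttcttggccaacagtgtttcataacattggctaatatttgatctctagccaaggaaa
Ltf, chr9:111019151-111019270, plus strand: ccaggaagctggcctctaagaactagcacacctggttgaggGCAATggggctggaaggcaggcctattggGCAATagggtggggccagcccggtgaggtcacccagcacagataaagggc

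The PU.1 letters GAGGAAG were found in the 250-base windows of all 4 primary genes and of 1 of 4 secondary genes (Lcn2), and in that of Mmp8. Over all 32851 windows of the table, 10.6% hold them. In Prtn3 they lie 95 to 89 bases before the start and in Elane 85 to 79 bases before it. The C/EBP letters GCAAT were found in all 4 secondary genes, in Mpo and Elane among the primary genes and in Mmp8, against 23.1% of all windows. Elane has them 57 to 53 bases before its start, outside the stretch printed. The GCAAT matches of Lcn2, Camp, Mpo and Elane lie inside the GENCODE gene positions given above. So do the GAGGAAG matches of Prtn3 and Lcn2. The MYB letters AACNG were in all 9 windows and in 74.2% of all windows, the RUNX letters TGTGGT were in Ctsg alone (14.0% of all windows), and CCAAT was in Ngp, Ltf and Elane (33.8%). In Ltf the CCAAT match, read as ATTGG, directly precedes a GCAAT match. These matches describe letters in a window and do not show that a factor binds there.

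All 10 granule genes had higher mean normalized counts in TMX than in VEH samples, and the difference was smallest for the primary genes (0.75 to 2.08 on the log2 scale, gene by gene), larger for the secondary genes (2.15 to 2.83) and 2.59 and 2.91 for the gelatinase-stage genes. On the scale of log2(normalized count + 1), averaged over the genes of a stage, TMX exceeded VEH by 1.55 (SE 0.63) for primary, 2.36 (SE 0.30) for secondary and 2.75 (SE 0.47) for gelatinase-stage genes (n = 5 each). TMX and VEH samples were free of overlap for 6 of the 10 genes, which are all 4 secondary and both gelatinase-stage genes. Of all tested genes 11.1% were higher in TMX without overlap, and 24% were without overlap in either direction. By limma across all tested genes, 9 of 10 (all but Elane) were called higher at an adjusted p under 0.05, against 16.8% of all tested genes, or 36.1% in either direction. Mpo was not called in 14 of 22 alternatives, Ctsg in 2 (the exact rank-sum test and without VEH 2) and Prtn3 in 1 (the exact rank-sum test). With 5 samples against 5, the rank-sum test called only genes without overlap. A log2 difference of at least 1 was reached by 9 of 10, again all but Elane, against 4.66% of all tested genes. Since the genes were picked for this contrast, nothing is read from these counts. More neutrophil-lineage cells and more RNA per cell cannot be told apart in bulk tissue.

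**Figure D1:**
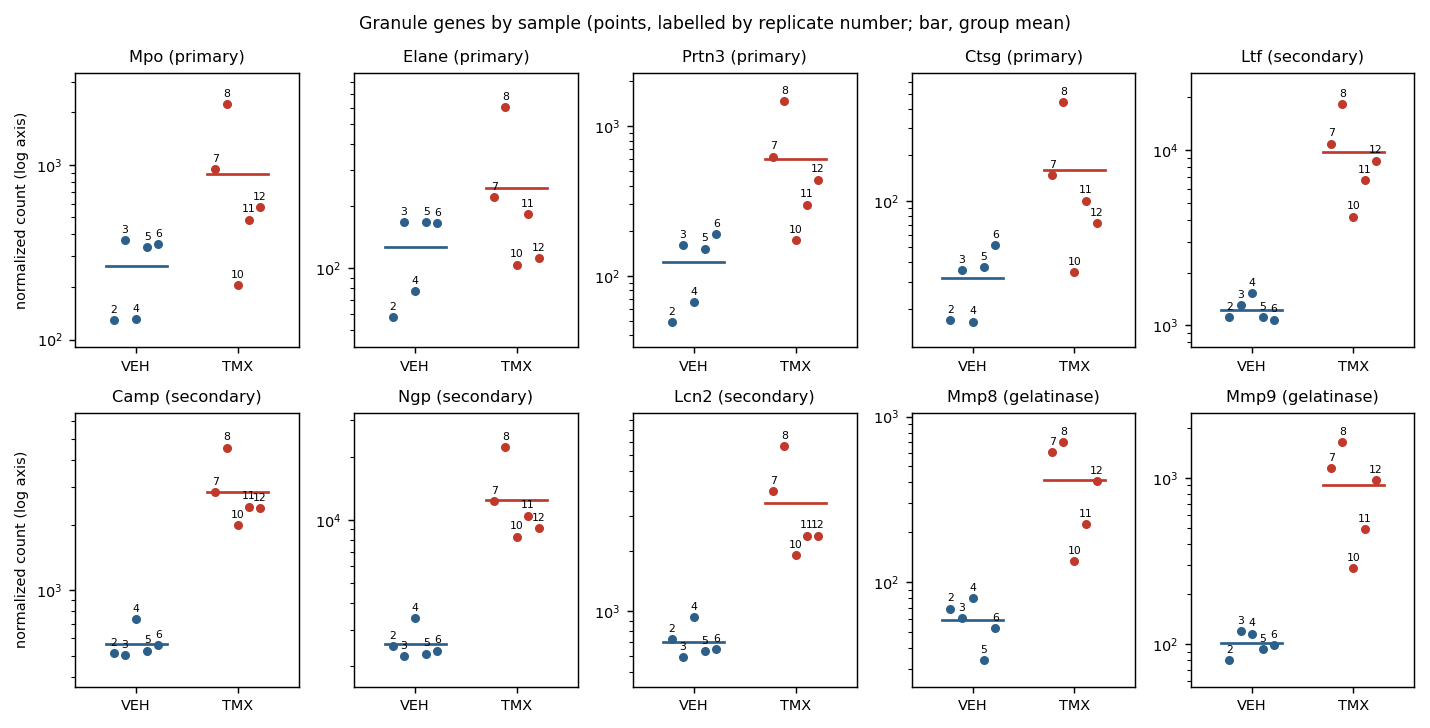
Normalized counts (log axis) of the 10 granule genes in every sample, with the stage in each panel's title. Points carry the replicate number and bars are group means; the VEH and TMX points overlap in the 4 primary granule panels and in none of the other 6.

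Among the primary granule genes, Mpo encodes myeloperoxidase, which makes hypochlorous acid in the phagosome. Mpo had 948, 2234, 204, 486 and 572 normalized counts in TMX 7, 8, 10, 11 and 12. In VEH 2, 3, 4, 5 and 6 it had 130, 372, 131, 340 and 352. TMX 8 was the highest, TMX 10 lay below 3 of the VEH samples, and VEH 2 and VEH 4 stood below the other VEH samples. The means were 889 ± 797 and 265 ± 123 (SD, n = 5 each), a log2 difference of 1.46 (SE 0.67).

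Elane encodes neutrophil elastase, a serine protease that cleaves elastin and bacterial proteins. Elane had 221, 607, 104, 184 and 112 normalized counts in the TMX samples, in the same order, and 57.9, 168, 77.5, 168 and 166 in the VEH samples. Only 3 of the 5 TMX samples exceeded the highest VEH sample, the fewest for any of the 10 genes. The log2 difference was 0.75 (SE 0.56), the smallest of the 10, and 0.34 to 1.08 over the alternatives run. It was 0.34 without TMX 8.

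Prtn3 encodes proteinase 3, the elastase-like protease known as the target of ANCA autoantibodies in human vasculitis. Prtn3 had 627, 1465, 173, 299 and 440 normalized counts in TMX and 49.2, 160, 66.5, 152 and 190 in VEH samples. TMX 10 fell inside the VEH range, below VEH 6, and the other 4 TMX samples lay above it. The log2 difference was 2.08 (SE 0.64), which exceeds that of its neighbour Elane although VEH 2 and VEH 4 were the lowest VEH samples for both.

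Ctsg encodes cathepsin G, a serine protease with chymotrypsin-like specificity. Ctsg had 147, 443, 34.5, 101 and 71.8 normalized counts in TMX and 16.9, 35.7, 16.5, 37.5 and 52.1 in VEH samples. TMX 10 again lay inside the VEH range, below 3 VEH samples. The log2 difference was 1.91 (SE 0.68). TMX 8 was 12.9 times TMX 10, the widest spread within a group among the 10 genes.

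Each primary granule gene thus had 1 or more TMX samples within the VEH range, and TMX 10 was always among them. Without TMX 10, 9 of the 10 granule genes were free of overlap, with Elane the exception, against 15.4% of all tested genes in that comparison. Without it the primary stage differed by 1.90 and with it by 1.55 on the log2 scale. Leaving out TMX 8, the highest sample, gave 1.11.

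Among the secondary granule genes, Ltf encodes lactoferrin, which binds iron and so withholds it from bacteria. Ltf had 10873, 18302, 4168, 6699 and 8689 normalized counts in TMX 7, 8, 10, 11 and 12, against 1118, 1306, 1532, 1118 and 1076 in VEH 2, 3, 4, 5 and 6. The lowest TMX sample was well above the highest VEH sample. Its mean was 7.92 times as high in TMX (9746 ± 5385 against 1230 ± 191, SD, n = 5 each), a log2 difference of 2.83 (SE 0.37).

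Camp encodes the cathelicidin precursor that yields the antimicrobial peptide CRAMP. Camp had 2831, 4540, 1991, 2427 and 2384 normalized counts in TMX and 513, 501, 738, 527 and 559 in VEH samples. The groups were far apart and VEH 4 stood above the other VEH samples. Camp varied least within TMX, with a coefficient of variation of 35.2%, and its log2 difference was 2.27 (SE 0.23).

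Ngp encodes neutrophilic granule protein, a member of the cathelicidin and cystatin families. Ngp had 12218, 22228, 8318, 10455 and 9112 normalized counts in TMX and 2493, 2244, 3408, 2305 and 2380 in VEH samples. The groups did not overlap, and VEH 4 was again the highest VEH sample. The log2 difference was 2.20 (SE 0.27).

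Lcn2 encodes lipocalin 2 (NGAL), which captures bacterial siderophores and is also made by macrophages and epithelia under inflammation. Lcn2 had 3990, 6683, 1902, 2390 and 2387 normalized counts in TMX and 725, 594, 933, 636 and 649 in VEH samples. The lowest TMX sample, TMX 10, was above the highest VEH sample, VEH 4. The log2 difference was 2.15 (SE 0.35).

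The gelatinase-stage genes encode metalloproteinases that degrade collagen. Mmp8, neutrophil collagenase, had 609, 699, 134, 223 and 406 normalized counts in TMX and 69.2, 60.5, 80.5, 34.005 and 53.0 in VEH samples. Mmp9, gelatinase B, had 1142, 1635, 286, 494 and 970 in TMX and 80.4, 120, 115, 92.8 and 98.4 in VEH samples. In both genes TMX 7, 8 and 12 were high, TMX 10 and 11 were lower, and all 5 TMX samples were above every VEH sample. The log2 differences were 2.59 (SE 0.49) for Mmp8 and 2.91 (SE 0.46) for Mmp9. For Mmp9 the mean was 8.94 times as high in TMX, the largest ratio of means among the 10 genes.

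To compare levels between genes, normalized counts were divided by the length of the longest coding transcript in kilobases. In VEH samples Ngp led with 2100 ± 392.4 normalized counts per kb, followed by Lcn2 (773 ± 147), Camp (749 ± 129) and Ltf (448 ± 69.6). The primary granule genes Elane (129 ± 55.8), Prtn3 (120 ± 60.3) and Mpo (96.4 ± 44.9) came next and did not differ from each other beyond their spread. Mmp9 (31.9 ± 5.13), Ctsg (31.7 ± 15.1) and Mmp8 (24.5 ± 7.24) were lowest, likewise within their spread (SD, n = 5 for all). In TMX samples Ngp again led with 10202 ± 4627 normalized counts per kb. Lcn2, Camp and Ltf were next at 3793 ± 2144, 3740 ± 1317 and 3553 ± 1963, and these did not differ beyond their spread. Prtn3 had 586 ± 499, Mpo 323 ± 290, Mmp9 285 ± 169, Elane 250 ± 211, Mmp8 171 ± 99.7 and Ctsg 159 ± 164 normalized counts per kb in TMX (SD, n = 5), with each neighbouring pair within the spread. Secondary granule transcripts had the highest levels per kb in both groups.

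The balance between stages was examined inside each sample, where a scaling factor common to all genes of a sample nearly cancels. The mean log2 value of the secondary genes minus that of the primary genes was 4.06, 3.44, 4.98, 4.29 and 4.43 in TMX 7, 8, 10, 11 and 12. In the VEH samples it was 4.30, 2.80, 4.54, 2.83 and 2.65. VEH 2 and VEH 4 lay among the TMX samples, and VEH 3, 5 and 6 lay below all of them. The group means were 4.24 ± 0.56 and 3.43 ± 0.92 (SD, n = 5 each), and the groups overlapped.

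Gelatinase-stage minus primary genes gave 1.16, 0.14, 0.88, 0.54 and 1.56 in TMX and 0.56, -0.69, 0.72, -1.24 and -1.09 in VEH samples. Again VEH 2 and VEH 4 lay within the TMX range and the other VEH samples were below it. Gelatinase-stage minus secondary genes gave means of -3.39 ± 0.54 in TMX and -3.77 ± 0.21 in VEH samples (SD, n = 5 each), with overlap. TMX 7 and TMX 12 had the highest values of this difference (-2.90 and -2.87), while TMX 10 had the lowest of all samples (-4.10). No within-sample stage difference separated the groups, although each stage difference was higher in the TMX mean under every alternative run.

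**Figure D2:**
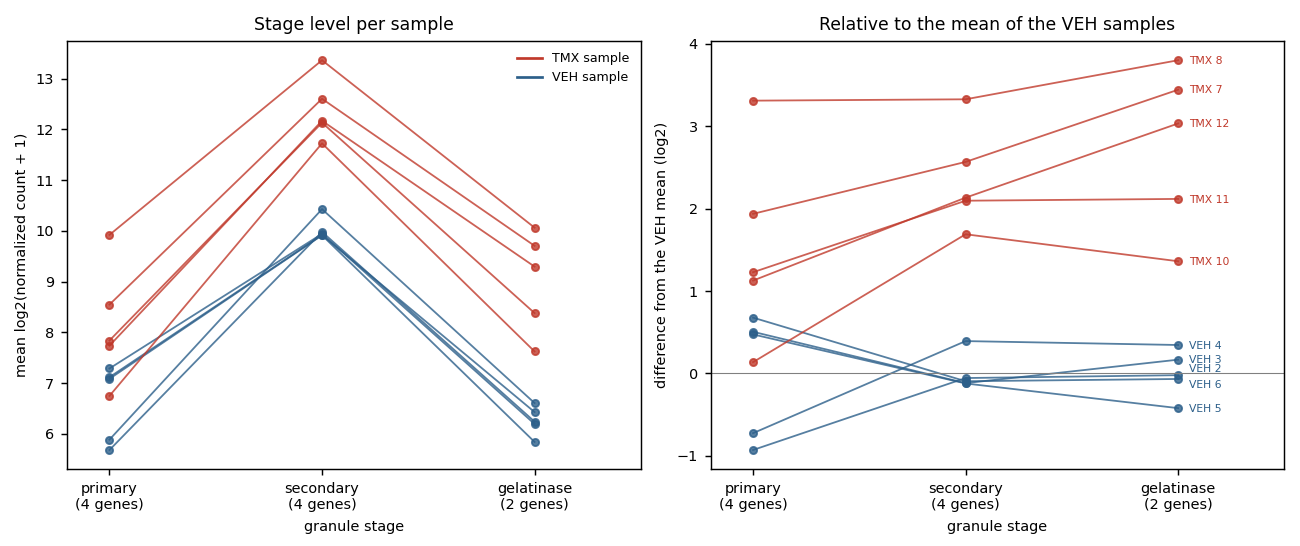
Left, mean log2(normalized count + 1) of the genes of each stage, with 1 line per sample; right, the same values minus the VEH mean of the stage. TMX lines start between 0.14 and 3.31 at the primary stage and lie at 1.36 to 3.80 at the gelatinase stage, while VEH 2 and VEH 4 are the lowest VEH lines at the primary stage.

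Summed over genes, the 10 granule transcripts made up 0.0932% ± 0.0479 of the total normalized counts in TMX and 0.0169% ± 0.00222 in VEH samples (SD, n = 5 each). The secondary genes made up most of this sum. The sum of secondary genes was 31.7 times that of primary genes in TMX 10, 10.9 times in TMX 8 and 15.4 to 20.5 times in the other TMX samples. In VEH 2 and VEH 4 this ratio was 19.1 and 22.7, against 6.14 to 6.57 in VEH 3, 5 and 6.

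Samples also varied around their own group mean, and in this the primary genes were more like each other than like the other stages. TMX 8 was the highest TMX sample and TMX 10 the lowest TMX sample for all 10 genes. Among VEH samples there was no such common order: VEH 2 or VEH 4 was lowest for all 4 primary genes, while VEH 4 was highest for all 4 secondary genes and for Mmp8. Likeness was measured as Pearson's correlation of log2 values after subtracting each group's mean, over the 10 samples, and is a description with no test. The samples that set it are the same for every gene pair. It was 0.92 to 0.98 for the 6 pairs of primary genes and 0.87 to 0.98 for the 6 pairs of secondary genes. The pair Mmp8 and Mmp9 had 0.90. Between primary and secondary genes it was lower in all 16 pairs, at 0.53 to 0.76, and between primary and gelatinase-stage genes it was 0.35 to 0.81. Between secondary and gelatinase-stage genes it was 0.71 to 0.96, with Ltf and Mmp9 the closest pair. This range overlaps that of the secondary pairs, so these 2 stages were not set apart by it.

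**Figure D3:**
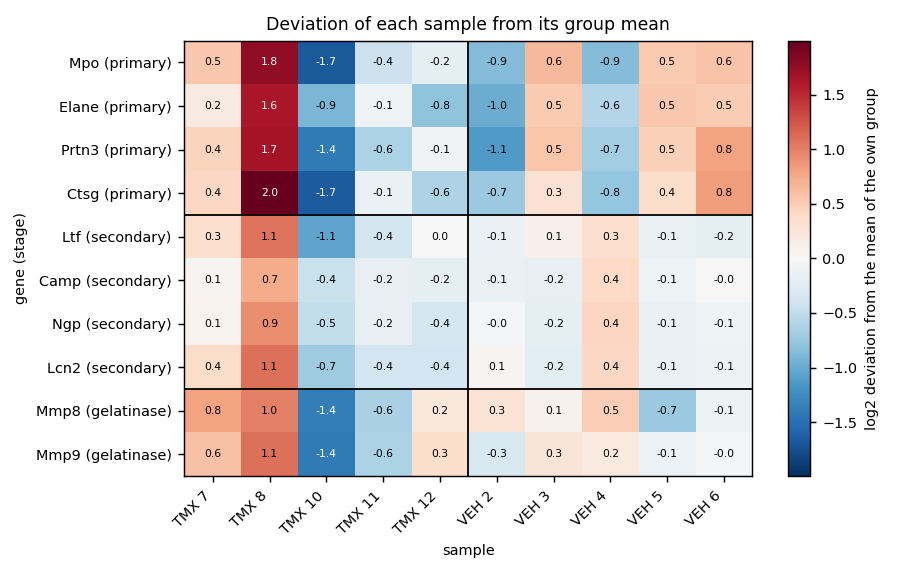
Deviation of each sample from the mean of its own group, on the log2(normalized count + 1) scale, for the 10 granule genes. Rows are genes by stage and columns are samples; TMX 8 is positive and TMX 10 negative in every row, VEH 2 and VEH 4 are negative in all 4 primary rows, and VEH 4 is positive in the other 6.

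The genes most like each stage by this measure were sought among 10743 genes with a mean of at least 100 normalized counts, leaving out the granule genes. With so many genes and 10 samples, high values arise readily. For the primary stage they were Napsa (0.97), Cables2 (0.97), Ctss (0.97), Ostf1 (0.96) and Rab44 (0.96). For the secondary stage they were S100a8 (0.99), Flot2 (0.97), Rabggta (0.97), S100a9 (0.97) and Hk3 (0.97). S100a8 and S100a9 encode the calprotectin subunits that fill the neutrophil cytosol, and Hk3 encodes a hexokinase of myeloid cells. For the gelatinase stage they were Retnlg (0.98), Batf (0.98), Ncf4 (0.98), Lfng (0.98) and Cd52 (0.98). Retnlg encodes resistin-like gamma, a marker of late neutrophils, and Ncf4 a subunit of the NADPH oxidase.

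Of these 15 genes some also differed between the groups. S100a8 had 9712 ± 5078 normalized counts in TMX and 1850 ± 311 in VEH samples, a log2 difference of 2.26 (SE 0.27, limma adjusted p = 0.000262). Retnlg had 485 ± 272 against 106 ± 24.9 (difference of 1.97 on the log2 scale with SE 0.39, adjusted p by limma 0.00300). Ctss, which encodes the lysosomal protease cathepsin S, had 593 ± 102 against 307 ± 42.9 (difference of 0.94 on the log2 scale with SE 0.13, adjusted p by limma 0.000529; SD, n = 5 each). Cables2, Flot2, Rabggta, Batf, Lfng, Cd52, Ostf1 and Napsa did not pass the test, with adjusted p of 0.0729 to 0.452.

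Other genes of the programme were taken from 8 lists holding 86 genes, of which 82 passed the filter. Csf3r, Serpinb1a and Slpi are shared between lists and enter this total once. By limma, 42 of the 82 were higher in TMX and 12 were lower, against 16.8% and 19.4% of all tested genes. Their median log2 difference was 0.58, beside -0.00014 for all tested genes. These lists were drawn up with earlier results of the same samples known. The shares of all tested genes, 16.8% higher and 19.4% lower, stand beside the counts of each list that follows.

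Among 10 other genes of primary granules, 4 rose, 4 fell and 2 did not pass, with a median log2 difference of -0.14. Ms4a3, a marker of granulocyte-monocyte progenitors and promyelocytes, rose from 26.0 ± 8.94 to 128 ± 115 normalized counts (difference of 1.95 on the log2 scale with SE 0.47, adjusted p by limma 0.00738). Lyz2, the lysozyme shared with macrophages, rose from 880 ± 114 to 3609 ± 1606 (difference of 1.94 on the log2 scale, adjusted p by limma 0.000227). Cd63, a granule membrane tetraspanin, rose by a log2 difference of 1.68, and Serpinb1a, which encodes an inhibitor of elastase and cathepsin G, by 1.31. The 4 that fell, named to account for the count, were Prss57 (-0.44), Srgn (-0.34), Ctsc (-0.26) and Bpi (-1.37). Prss57 encodes a serine protease, Srgn the proteoglycan that packs granule proteases, Ctsc the peptidase that activates them and Bpi a protein that binds bacterial lipopolysaccharide. The call of Prss57 was lost after upper-quartile rescaling, under the exact rank-sum test and without TMX 7 or 12 or VEH 3, 5 or 6 (adjusted p = 0.0529 to 0.0823). The call of Ctsc was lost under the same rescaling and rank test, quantile normalization, limma without trend, and without TMX 7, 11 or 12 or VEH 2, 4 or 5 (adjusted p = 0.0505 to 0.124). Gusb and Cst7 did not pass. Srgn had 1995 ± 219 normalized counts in TMX and 2522 ± 193 in VEH samples, and Ctsc 1402 ± 180 and 1669 ± 114. Gusb had 3370 ± 243 and 3708 ± 95.7 (SD, n = 5 each). In both groups the means of these 3 genes were above those of Mpo, Elane, Prtn3 and Ctsg. Which cells of the tissue made their transcripts was not tested, so the split of this list is not read as one within neutrophils.

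Among 11 other genes of secondary granules that passed the filter, 9 rose and none fell, with a median log2 difference of 1.67. Hp, which encodes haptoglobin, rose from 188 ± 40.4 to 1064 ± 487 normalized counts (difference of 2.41 on the log2 scale with SE 0.25, adjusted p by limma 0.000109). Lrg1, a leucine-rich glycoprotein of secondary granules, rose by 2.25 (limma adjusted p = 0.00212). Cd177, a neutrophil surface glycoprotein that binds proteinase 3, rose by 1.95 (limma adjusted p = 0.000756). The integrin chain gene Itgb2 and the oxidase subunit gene Cyba, both expressed across leukocytes, did not pass, with differences of 0.01 and 0.20 (limma adjusted p = 0.967 and 0.0661). Ptx3 was the listed gene that did not pass the filter.

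Among 10 other genes of gelatinase granules and secretory vesicles, 6 rose, 1 fell and 3 did not pass, with a median of 0.91. Fpr2, a formyl peptide receptor, rose from 41.3 ± 18.2 to 172 ± 96.1 normalized counts (difference of 1.92 on the log2 scale with SE 0.39, adjusted p by limma 0.00338), and its adjusted p by the exact rank-sum test was 0.0512. Mmp25, the membrane-anchored leukolysin, rose by 1.90. Alpl, which encodes alkaline phosphatase, fell by 0.23 on the log2 scale (limma adjusted p = 0.00428). It had 2282 ± 122 normalized counts in TMX and 2667 ± 47.8 in VEH samples, above Mmp8 and Mmp9 in both groups. Which cells made it was not tested. Slc11a1 and Cd14 did not pass.

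All 10 genes of the mature neutrophil list rose, with a median log2 difference of 1.86, against 16.8% of all tested genes. Ly6g, the surface antigen that defines mouse neutrophils, rose from 20.9 ± 8.81 to 223 ± 79.5 normalized counts (difference of 3.42 on the log2 scale with SE 0.35, adjusted p by limma 0.000115). S100a9 rose from 2355 ± 331 to 12808 ± 6617 (difference of 2.31 on the log2 scale with SE 0.27, adjusted p by limma 0.000227). The differences of S100a8 and S100a9 were of the size seen for Camp, Ngp and Lcn2, while that of Ly6g was larger than that of any granule gene. The differences between genes were not tested.

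**Figure D4:**
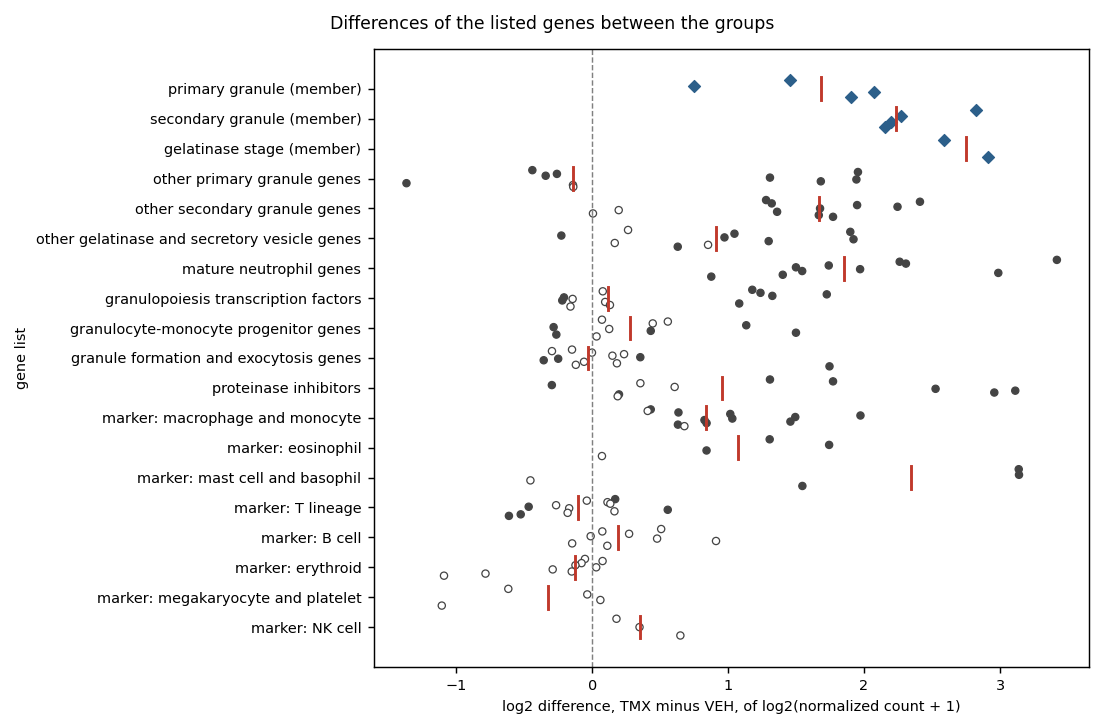
Log2 differences (TMX minus VEH, on the log2(normalized count + 1) scale) of the genes of each list that passed the filter. Blue diamonds are the 10 granule genes, filled circles are other genes with a limma adjusted p under 0.05, open circles are those without, red bars are list medians and the dashed line is the median of all tested genes; all 10 mature neutrophil genes lie to the right of it and primary granule genes outside the 10 lie on both sides.

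Of 12 transcription factors of granulocyte formation, 5 rose, 2 fell and 5 did not pass. Cebpe, which is needed for secondary granule genes, rose from 42.2 ± 6.00 to 151 ± 72.3 normalized counts (difference of 1.73 on the log2 scale with SE 0.24, adjusted p by limma 0.000619). Spi1, which encodes PU.1, rose from 143 ± 16.3 to 381 ± 147 (difference of 1.33 on the log2 scale with SE 0.23, adjusted p by limma 0.00145). Cebpd rose by 1.24 and Cebpa by 1.18, the latter from 26.3 ± 10.4 normalized counts in VEH samples and with an adjusted p of 0.0512 by the exact rank-sum test. Klf4, the remaining gene that rose, had a difference of 1.08, and its call was lost under quantile normalization, the exact rank-sum test and without TMX 7, 8 or 12 or VEH 3, 5 or 6 (adjusted p = 0.0645 to 0.124). Myb, which leukemic T cells also express, fell from 12754 ± 241 to 10959 ± 474 (difference of -0.22 on the log2 scale with SE 0.04, adjusted p by limma 0.00229). Gfi1, a repressor used in both neutrophil and T cell development, was the other that fell (-0.21, limma adjusted p = 0.00879), and this call was lost after upper-quartile rescaling (-0.13, adjusted p = 0.113) and quantile normalization (-0.14, adjusted p = 0.0684). Lef1 and Runx1, both abundant in T cells, did not pass.

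Of 10 progenitor genes, 3 rose, 2 fell and 5 did not pass, against 16.8% higher and 19.4% lower among all tested genes. Csf3r, the G-CSF receptor gene, rose from 95.9 ± 19.9 to 279 ± 84.8 normalized counts. It is also in the mature neutrophil list and was counted there too. Csf1r, the M-CSF receptor gene, rose by 0.43, a call lost under the exact rank-sum test and without TMX 8 and 10 together (adjusted p = 0.0823 and 0.0613). Fcnb, which encodes ficolin B of immature granulocytes, rose by 1.13 (limma adjusted p = 0.0203). The call of Fcnb was lost under quantile normalization, the exact rank-sum test, without VEH 2 and without TMX 8 and 10 or TMX 10 and 11 together (adjusted p = 0.0512 to 0.0876). Mcm5, a replication licensing factor of any dividing cell, fell by 0.28 on the log2 scale, and this call was lost after upper-quartile rescaling, by limma without trend, under the exact rank-sum test and without TMX 7 or VEH 2 or 5 (adjusted p = 0.0527 to 0.184). Cdk6 fell by 0.26, with an adjusted p of 0.0823 by the exact rank-sum test. Kit and Cd34, which mark early progenitors, did not pass, at 230 ± 41.4 against 219 ± 39.7 and 28.2 ± 13.7 against 17.6 ± 2.28 normalized counts (TMX against VEH, SD, n = 5 each). Kit and Cd34 were named after their values were seen. Sox4 and Tcf4 did not pass either.

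Of 12 genes for the formation and release of granules, most of which work in other leukocytes too, 2 rose, 2 fell and 8 did not pass. The shares called were near those of all tested genes (16.8% higher and 19.4% lower). Rab44, which encodes a large Rab GTPase, rose from 83.3 ± 18.8 to 291 ± 118 normalized counts (difference of 1.75 on the log2 scale with SE 0.24, adjusted p by limma 0.000525). The vesicle SNARE gene Vamp8 rose by 0.35. Lyst, mutated in Chediak-Higashi syndrome, fell by 0.36 on the log2 scale and Snap23 by 0.25. The call of Snap23 was lost after upper-quartile rescaling (limma adjusted p = 0.0540), and that of Lyst under the exact rank-sum test (adjusted p = 0.0512). Rab27a and Ap3b1 did not pass.

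Of 10 proteinase inhibitor genes that passed the filter, 6 rose, 1 fell and 3 did not pass. Slpi, an inhibitor of elastase and cathepsin G, rose from 69.9 ± 13.5 to 265 ± 126 normalized counts (difference of 1.77 on the log2 scale with SE 0.31, adjusted p by limma 0.00166). Timp2, an inhibitor of metalloproteinases, fell by 0.30 on the log2 scale (limma adjusted p = 0.00960). The stefin genes Stfa1, Stfa2 and Stfa3 were among those that rose, but they are close copies of each other and their counts are uncertain. Cst3 and Timp3 did not pass.

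The neighbours of the clustered granule genes were compared with them. Between Camp and Ltf on chromosome 9, 17 other genes were tested; 3 were called higher and 2 lower (17.6% and 11.8%, against 16.8% and 19.4% of all tested genes). None of the 17 had a log2 difference of 1 or more, and the largest was 0.89, for the protease gene Prss50, at 42.2 ± 11.4 against 23.0 ± 8.08 normalized counts. Within 100 kb of Prtn3 and Elane on chromosome 10, 13 other genes were tested. Of these, 2 were called higher and 4 lower (15.4% and 30.8%, against 16.8% and 19.4% of all tested genes). Plppr3 and Med16, the nearest tested genes on either side of the pair, had log2 differences of -0.01 and -0.36. These neighbours were named after their values were seen.

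Markers of other blood cells that could add to these transcripts were measured beside them. Of all tested genes, 16.8% were called higher and 19.4% lower by limma, and these shares stand beside each count that follows. Of 12 macrophage and monocyte markers, 10 were called higher and none lower, with a median log2 difference of 0.83, and their sum was 4391 to 6309 normalized counts in TMX and 2466 to 2879 in VEH samples. The largest rise was that of Ly6c2, a marker of inflammatory monocytes (1.97, limma adjusted p = 0.000578). Lyz2, Itgam, Cybb and Lcn2 are also made by such cells. Of 4 mast cell and basophil markers that passed the filter, 3 were called higher, and the sum of the 7 in the table was 158 to 544 in TMX and 127 to 149 in VEH samples. Hdc, the most abundant of them, had 233 ± 109 against 73.0 ± 16.2 normalized counts (SD). It had a likeness of 0.74 with the primary, 0.84 with the secondary and 0.97 with the gelatinase stage. Cpa3, the marker not called, was lower in the TMX mean, at 38.6 ± 12.6 against 51.4 ± 7.46. Mcpt8, the basophil protease, was listed at 0 in VEH 2, VEH 4 and VEH 6, at 3.99 in VEH 3 and at 1.94 in VEH 5. In TMX samples it had 2.87 to 36.3, so the groups overlapped, with TMX 7 below VEH 3. Prss34, another marker of this list, had 44.4 ± 22.5 in TMX and 3.95 ± 2.69 in VEH samples (SD, n = 5 each), without overlap. Its log2 difference of 3.14 (limma adjusted p = 0.000689) was larger than that of any of the 10 granule genes, at low counts in VEH. Of 4 eosinophil markers that passed, 3 were called higher, with sums of 157 to 187 in TMX and 58.7 to 87.5 in VEH samples. The part of these cells in the granule gene differences was not tested.

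None of the 8 B cell, 9 erythroid, 4 platelet-lineage and 3 NK cell markers that passed the filter was called by limma. Of all tested genes 36.1% were called in either direction. Their summed levels overlapped between the groups in each of the 4 lists. The NK cell sum was almost all Gzma (14982 ± 1944 in TMX, 13290 ± 2128 in VEH). The B cell sum was almost all Ighm (20921 ± 2886 in TMX, 19266 ± 1347 in VEH; SD, n = 5 each). These 2 sums therefore say little of the other markers. Cd79a, not called in the main fit, was called in 3 of 22 alternatives. Of 12 T lineage markers, 2 were called higher and 3 lower, against 16.8% and 19.4% of all tested genes. Their median log2 difference was -0.10.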

How the data were processed

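RNA from 10 leukemic spleens (5 TMX, 5 VEH) was sequenced. The authors used kallisto 0.44.0, DESeq and the build mm10, per the submitters' processing notes. The deposited values, 1 column per sample, are a normalized signal: counts per gene that the authors normalized with DESeq, per the file's name. The annotation is not given in the sources used here. The commonest low value of a sample was taken as 1 read. Of values worth at most 8.5 reads, 69.2% to 73.9% were whole multiples of it to within 0.1, so whole reads were not recovered and no count test was run. Read this way, the depth was about 31.3 to 38.2 in units of 1e+06 reads.

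Log2(value + 1) of the 15276 genes with a mean of at least 10 was fitted with limma 3.58.1 in R 4.3.3 (group only, intensity trend), with Benjamini-Hochberg adjustment over all of them and a threshold of 0.05. The script was tested on simulated data. Fold changes of low genes are understated on this scale. SEs of the 10 granule genes come from the group SDs, those of other genes from limma. Lengths and positions are from GENCODE M21.

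Members, lists and alternatives were chosen with earlier results of these data known. Besides the 10 genes and Sirt1, genes were named by rule: from each list up to 3 with the largest called difference and a mean of at least 50, 1 called the other way, the 2 highest not called, and 5 per stage by likeness. Alternatives were other pseudocounts, filters, scalings and tests, and the omission of samples or genes.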

Additional observations from a re-analysis of the deposited data

Results flagged for a closer look

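For the 10 granule genes, Sirt1 and 6 stage values, 34 sets of 5 samples were examined for a sample set far apart from its group. The gap to the nearest sample, divided by the range, exceeded the critical 0.71 in 6 sets, where chance at 1 in 20 gives 1.7 for normally distributed values. Genes were examined as normalized counts and stage values on the log2 scale. Counts that spread more at their high end pass the critical value more readily, so nothing is read from the number of sets. The genes of a stage move together, so these sets are not independent.

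TMX 8 was the highest TMX sample for Elane at 607 normalized counts (others 104 to 221), for Ctsg at 443 (others 34.5 to 147) and for Ngp at 22228 (others 8318 to 12218). VEH 4 was the highest VEH sample for Camp at 738 (others 501 to 559) and for Ngp at 3408 (others 2244 to 2493). It was also the highest in the secondary stage mean at 10.43 on the log2 scale (others 9.91 to 9.98).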

How the results depend on the processing

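No paired analysis was run, because the labels give no pairing of TMX with VEH samples. The different numbers in the titles do not show whether a pairing existed. The direction of all 10 granule genes and of all 6 stage values was kept under every alternative run, and each moved by less than 1 SD. Over the alternatives the primary difference ranged from 1.11 to 2.12, the secondary from 2.12 to 2.68 and the gelatinase-stage difference from 2.49 to 3.43. The number of granule genes called was 6 to 9, with Mpo not called in 14 of 22 alternatives, and 37 to 60 of the 8 lists' genes were called. The exact rank-sum test called 3659 genes in all (5518 by limma), and 684 of the limma calls were also 1 or more on the log2 scale, higher or lower. Those 3659 are the genes without overlap, so a call lost under the rank-sum test restates that the groups overlap. Without 1 sample each, limma called 4207 to 6259. Upper-quartile rescaling raised the share of calls that were higher from 46.4% to 64.4% and moved the median of all genes to 0.0813. Leaving out TMX 10 and 11, or TMX 8 and 10, together was chosen after seeing the data; in both, 9 of 10 granule genes did not overlap, against 21.4% and 17.2% of all tested genes. Of 1358 refits of 62 other named genes, 1279 kept direction and call, 47 lost and 21 gained the call. Signs turned only for genes that were not called: Ap3b1 with upper-quartile rescaling (0.0223), Cd14 with quantile normalization (-0.123), Tcf4 with array weights (-0.00279), Cst7 without TMX 10 and 11 (0.0624) and Itgb2 without TMX 8 and 10 (-0.0250). Without 1 sample, Itgb2 gave -0.0634 to 0.0659 and Tcf4 gave -0.0342 to 0.102.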

Other observations

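The split among VEH samples at the primary stage was also present in genes outside the 10, and 2 are described here after their values were seen. VEH 2 and VEH 4 were likewise the lowest VEH samples for Cd79b, Ighm, Gzma, Napsa, Ctss and Rab44. The share of all tested genes with this order was not counted, so nothing is read from these examples. Anxa3, which encodes annexin A3 of neutrophils and is in the list of other secondary granule genes, had 19.7 and 23.8 normalized counts in VEH 2 and VEH 4 and 50.7, 59.6 and 51.6 in VEH 3, 5 and 6. The B cell receptor component Cd79a had 103 and 86.1 in VEH 2 and VEH 4 and 157, 149 and 154 in VEH 3, 5 and 6. Ltf, Camp, Ngp and Lcn2 were each highest in VEH 4 among the VEH samples.

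By the likeness measure over 10 samples, 8 B cell markers had a median of 0.65 with the primary stage, 0.22 with the secondary stage and 0.39 with the gelatinase stage. The 9 erythroid markers had medians of -0.50, -0.48 and -0.44. Erythroid markers summed to between 29354 and 146050 normalized counts in TMX and between 31375 and 121317 in VEH samples, after red cell lysis. Among transcription factors, Cebpe had a likeness of 0.82 with the primary, 0.72 with the secondary and 0.47 with the gelatinase stage. Spi1 had 0.75, 0.94 and 0.93 in the same order. Ms4a3 had 0.94, 0.83 and 0.77, and Prss57, which lies near Elane and Prtn3, had 0.13, -0.27 and -0.60.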
